A study of Mus musculus with 6 samples.

Results

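The genes described here code for the guidance proteins first known from growing nerve fibres: semaphorins with their plexin and neuropilin receptors, Eph receptors with their ephrin ligands, Slits with Robo receptors, and netrins with theirs. They were chosen by gene family and not by their values, as every probe set assigned to a single gene whose symbol begins with Sema, Plxn, Epha, Ephb, Efna or Efnb, or is Nrp1, Nrp2, Slit1, Slit2, Slit3, Robo1, Robo2, Ntn1, Ntn4, Unc5b or Dcc. This gave 62 genes of 18193 with a probe set of their own, and 143 probe sets in all. For each gene the probe set with the highest mean log2 intensity over the 6 arrays stands for it. The 62 were 20 semaphorins, 12 plexins and neuropilins, 13 Eph receptors, 8 ephrins, 5 Slits and Robos, and 4 netrins and netrin receptors. One of the 12, Plxna4os1, is a transcript from the strand opposite Plxna4 and not a receptor.

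RNA was taken from Wnt1-YL cells, a mammary tumor cell line from an invasive carcinoma in an FVB/n mouse carrying MMTV-Wnt1. In such mice the MMTV promoter drives the Wnt1 transgene in mammary epithelium. The shSca-1 group (3 arrays) had received a lentiviral short hairpin RNA against Sca-1, the surface protein made from the gene Ly6a, and the shLuc group (3 arrays) carried a hairpin against luciferase. All cells were selected with puromycin after transduction and cultured in medium with serum, insulin and EGF. All carry the Wnt1 transgene and a lentiviral vector. Everything comes from 1 line, and the labels call the samples biological replicates without saying whether they were separate cultures or transductions, so the p-values measure only the spread between these arrays. RNA was measured on Affymetrix arrays, and each value is an intensity modelled from a set of short probes. Intensities of different probe sets are not on a common scale, and are compared here only between arrays. In these bulk samples fewer cells of a type and less RNA per cell cannot be told apart.

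Many guidance proteins act between neighbouring cells or at short range, and some are secreted and can diffuse. A ligand on or released from one cell binds a receptor on another, and the receptor changes the actin skeleton and adhesion of the cell that carries it, so that the cell is drawn forward or repelled. Epithelia use the same proteins: in the mammary gland Slits and netrins with their receptors hold the basal and luminal layers together, and Eph receptors and ephrins take part in the branching of ducts.

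The targeted gene followed the labels. Ly6a, whose probe set has no symbol in the platform table and was named through the study's list, had intensities of 285, 314 and 306 in shSca-1 cells, against 7646, 7362 and 2843 in shLuc cells (log2 fold change -4.17, standard error, SE, 0.36, adjusted p = 0.051 by limma). shLuc replicate 3 stood apart. Over 18387 probe sets the median absolute log2 difference between this array and any other was 0.317 to 0.340, against 0.098 between shLuc replicates 1 and 2 and 0.138 to 0.183 among the shSca-1 arrays. The summed intensity of 16 genes of luminal mammary cells was 642 to 658 in shSca-1 cells, against 638, 598 and 24567 in shLuc replicates 1, 2 and 3. The sum of 9 genes of basal mammary cells was 29244 to 32032 in shSca-1 cells, against 33411, 33434 and 18774 in shLuc cells. Genes of other cell types were also summed. The summed intensity was 51.8 to 65.1 in shSca-1 cells and 40.7 to 61.3 in shLuc cells for 4 endothelial genes, and 178 to 348 in shSca-1 cells and 190.1 to 436 in shLuc cells for 4 leukocyte genes. For 5 fibroblast genes it was 354 to 371 in shSca-1 cells and 117 to 266 in shLuc cells, and for 4 neuronal genes 313 to 336 in shSca-1 cells and 125 to 216 in shLuc cells. The fibroblast and neuronal sums were higher on every shSca-1 array than on every shLuc array, but not every gene in them was. Most of the neuronal sum was Tubb3, at 236, 262 and 235 in shSca-1 cells, against 139, 135 and 72.0 in shLuc cells. Rbfox3 was separated the same way, and Snap25 and Syt1 overlapped. Of the fibroblast genes Col1a1 was separated, and Pdgfra, Pdgfrb, Col3a1 and Dcn overlapped between the groups. Because shLuc replicate 3 stood apart, named genes are given with and without it. The part of this array's makeup in any guidance gene's value was not tested.

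Few guidance genes passed a test between shSca-1 and shLuc cells. A gene is called here at an unadjusted limma p under 0.01 with a fold over 1.5, the thresholds of the study, and separately at a Benjamini-Hochberg adjusted p under 0.05 over all 45037 probe sets. On the 6 arrays 3 of the 62 guidance genes were called lower in shSca-1 cells by the first rule (Ntn4, Ephb4 and Robo1), or 4.84%, against 1.52% of all 18193 genes. Slit2 alone was called higher, or 1.61%, against 0.528% of all genes. No guidance gene and 0% of all genes had an adjusted p under 0.05. At an unadjusted p under 0.05, 7 guidance genes were lower (11.3%, against 7.05% of all genes) and 4 were higher (6.45%, against 3.57%). These counts are small, and the shares stand side by side without a test. The median log2 fold change was -0.05 over the guidance genes and -0.04 over all genes. Of the 62, 41 had a negative value, beside 9935 of all 18193 genes. The 41 became 29 with quantile normalization and 30 with each array centred on its median.

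Without shLuc replicate 3, the first rule called 4 guidance genes lower (Ntn4, Robo1, Ephb6 and Slit3), or 6.45%, against 2.91% of all genes, and 0 higher, against 1.08% of all genes. By adjusted p, 3 were lower (Ntn4, Robo1 and Ephb6), or 4.84%, against 2.73% of all genes, and 2 were higher (Slit2 and Sema4d), or 3.23%, against 1.17%. With both replicates 3 left out, a comparison of 2 arrays with 2 that was added after the data were seen, 6 were called lower (9.68%, against 4.49% of all genes) and 1 higher (1.61%, against 1.27%). By adjusted p these 2 against 2 arrays gave 10 lower (16.1%, against 9.21% of all genes) and 3 higher (4.84%, against 3.19%). The lower ones were Ntn4, Robo1, Slit3, Ephb6, Efna1, Efna2, Sema4c, Sema6d, Nrp1 and Plxnb2, and the higher ones Slit2, Efnb2 and Sema4d. All 3 shSca-1 arrays lay below all 3 shLuc arrays for 8 guidance genes, or 12.9%, against 11.5% of all genes. They lay above for 5, or 8.06%, against 7.18%. Of the genes called on 6 arrays, Ntn4 passed the first rule whichever array was left out. Ephb4 passed it only without shLuc replicate 2, Robo1 only without shLuc replicate 3 and Slit2 only without shLuc replicate 1. The smallest two-sided p of an exact permutation test of 3 arrays against 3 is 0.1, so no single gene can pass 0.05 by that test.

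**Figure D1:**
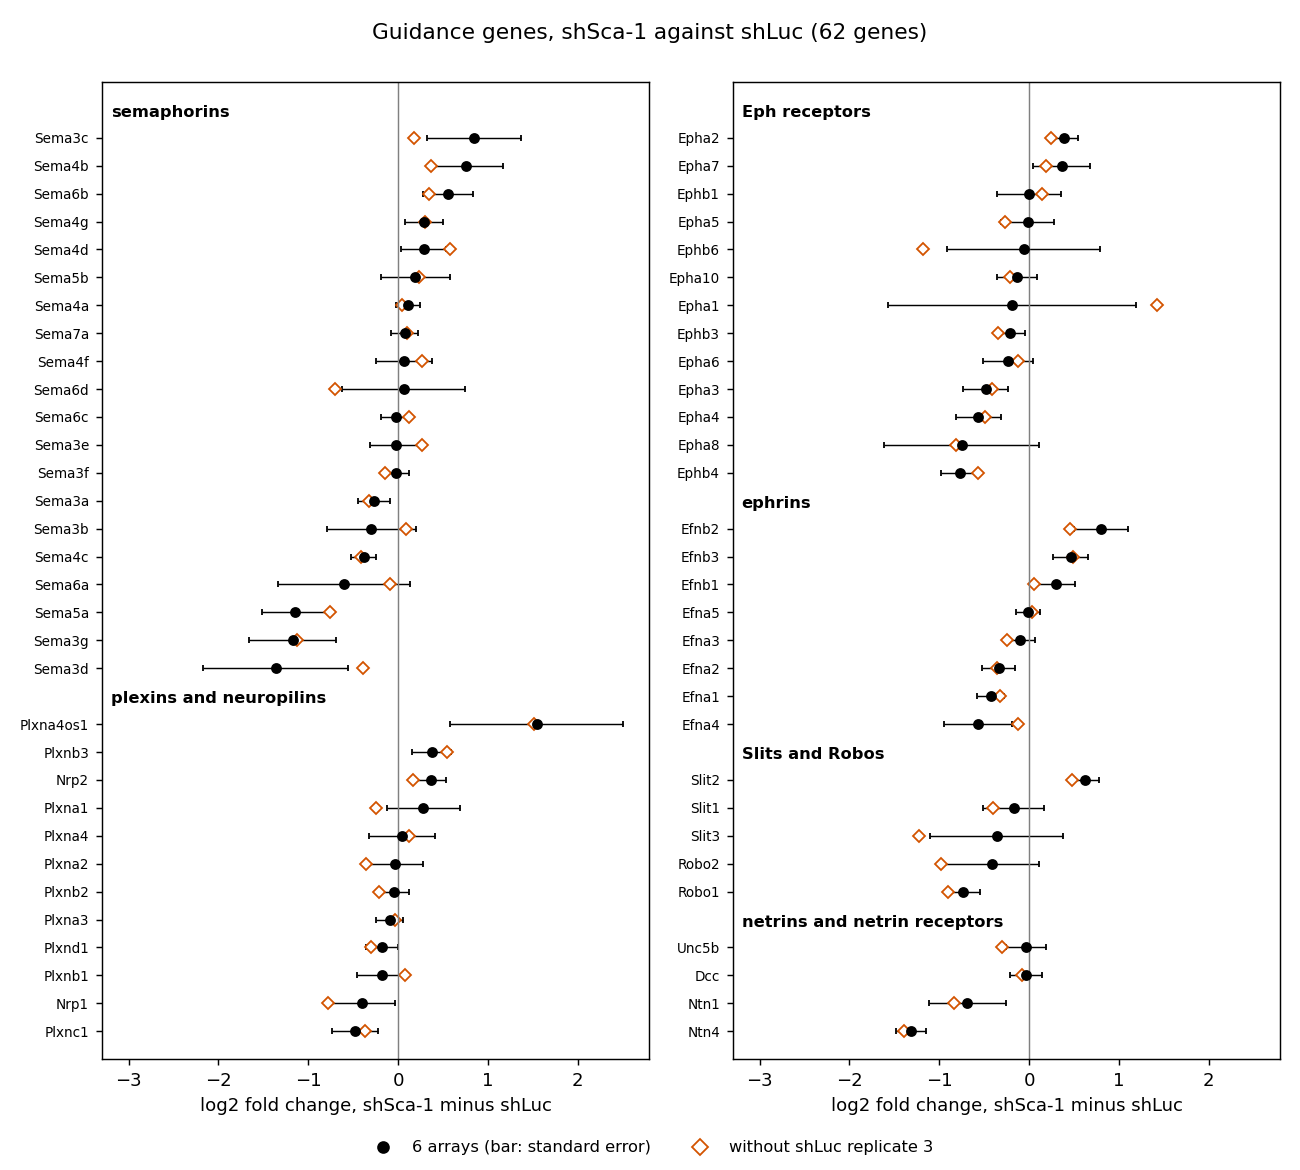
Each of the 62 guidance genes by its log2 fold change (shSca-1 over shLuc), grouped by role. Black points with standard errors use all 6 arrays, and open diamonds leave out shLuc replicate 3. Ntn4 lies at -1.31 and -1.39 and Slit2 at 0.62 and 0.48, whereas Ephb6 lies at -0.06 on 6 arrays and at -1.18 without shLuc replicate 3.

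The sequences around the start sites of the genes called on 6 arrays are shown because these are the members on which the comparison turns. Each is the RefSeq window of 250 bases before and 50 bases after the start in the build GRCm38.p6, read on the plus strand, and capitals mark the GC box GGGCGG on either strand, the motif bound by Sp1. The windows are chr10:93640799-93641098 for Ntn4, chr5:137349859-137350158 for Ephb4, chr16:72662899-72663198 for Robo1 and chr5:47982905-47983204 for Slit2. Those of Robo1 and Slit2 are at 1 of several annotated starts. The deposited table gives no coordinates of its own.
Ntn4: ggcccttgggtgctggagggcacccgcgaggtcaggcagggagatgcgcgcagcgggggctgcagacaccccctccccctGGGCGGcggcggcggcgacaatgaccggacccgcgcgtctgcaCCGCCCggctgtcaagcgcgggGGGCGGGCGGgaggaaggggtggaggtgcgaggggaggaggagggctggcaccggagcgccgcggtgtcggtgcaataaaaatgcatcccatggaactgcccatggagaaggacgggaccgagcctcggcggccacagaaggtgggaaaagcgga
Ephb4: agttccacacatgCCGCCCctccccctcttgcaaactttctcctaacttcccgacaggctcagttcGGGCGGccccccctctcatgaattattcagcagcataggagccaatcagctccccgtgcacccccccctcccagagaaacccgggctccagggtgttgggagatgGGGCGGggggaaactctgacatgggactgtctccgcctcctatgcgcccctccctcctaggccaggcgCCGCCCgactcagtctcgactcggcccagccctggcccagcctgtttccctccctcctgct
Robo1: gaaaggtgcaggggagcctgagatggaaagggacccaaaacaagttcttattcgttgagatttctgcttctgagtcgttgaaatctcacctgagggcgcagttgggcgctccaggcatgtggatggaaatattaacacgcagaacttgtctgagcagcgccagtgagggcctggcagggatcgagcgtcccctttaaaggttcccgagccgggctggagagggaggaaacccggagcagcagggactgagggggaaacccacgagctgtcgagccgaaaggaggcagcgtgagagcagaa
Slit2: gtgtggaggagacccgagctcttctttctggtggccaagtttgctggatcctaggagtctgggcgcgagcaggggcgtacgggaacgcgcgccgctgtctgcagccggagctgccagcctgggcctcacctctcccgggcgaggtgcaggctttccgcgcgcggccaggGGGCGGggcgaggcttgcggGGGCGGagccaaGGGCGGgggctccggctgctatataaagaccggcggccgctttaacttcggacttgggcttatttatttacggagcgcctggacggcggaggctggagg

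The GC box was found 4 times in the Ntn4 window, with 2 of the matches overlapping, 4 times in that of Ephb4, 3 times in that of Slit2 and 0 times in that of Robo1. It was present in 35.7% of 32851 RefSeq mouse windows of this length and in 73.5% of the 68 windows of 52 guidance genes for which there was one. The windows of Ntn4 and Slit2 held 31 and 30 CpG dinucleotides, those of Ephb4 and Robo1 14 and 15, and the median was 19.5 over the guidance gene windows and 7 over all windows. The letters CTTTGAA or CTTTGAT on either strand, forms of the site of the TCF and LEF factors through which Wnt signals reach genes, were in none of the 4 windows, in 4.41% of the guidance gene windows and in 8.65% of all windows. The letters TATAAA on either strand were in the Slit2 window alone among the 4, in 2.94% of the guidance gene windows and in 13.6% of all windows. Such matches describe the letters of the windows only.

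Among the netrins and their receptors, Ntn4 was the gene most clearly lower in shSca-1 cells. It codes for netrin-4, a secreted protein of basement membranes that binds laminin. Its intensity was 61.0, 76.4 and 64.5 in shSca-1 cells, against 185, 167 and 149 in shLuc cells. No array of one group reached the range of the other, and shLuc replicate 3 lay beside the other shLuc arrays. The means were 67.3 ± 8.08 in shSca-1 cells and 167 ± 17.9 in shLuc cells (SD, n = 3 each), and the log2 fold change was -1.31 (SE 0.17, unadjusted p = 0.00011, adjusted p = 0.090 by limma). It was -1.39 when shLuc replicate 3 was left out, with an adjusted p of 0.010 by limma. The second, dimmer Ntn4 probe set had 44.8, 49.0 and 36.6 in shSca-1 cells, against 62.5, 69.6 and 61.1 in shLuc cells (log2 fold change -0.57, unadjusted p = 0.026 by limma). Its groups did not overlap either.

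The other netrin genes were not called. Ntn1, the diffusible netrin that attracts or repels growing axons, was dim, with 30.4, 36.3 and 12.8 in shSca-1 cells, against 42.3, 44.0 and 31.7 in shLuc cells (log2 fold change -0.69, unadjusted p = 0.15 by limma, and -0.83 without shLuc replicate 3). The groups overlapped, since shSca-1 replicate 2 lay above shLuc replicate 3. The other, dimmer Ntn1 probe set had 11.4, 18.0 and 11.6 in shSca-1 cells, against 18.4, 25.6 and 59.6 in shLuc cells. Its groups did not overlap and it did not pass (log2 fold change -1.19, unadjusted p = 0.045 by limma, and -0.70 without shLuc replicate 3). Unc5b, a netrin receptor that mediates repulsion, had 727, 779.8 and 682 in shSca-1 cells, against 855, 942 and 514 in shLuc cells (log2 fold change -0.03). Both shLuc replicates 1 and 2 were above every shSca-1 array and shLuc replicate 3 below them, and without that array the log2 fold change was -0.30 (adjusted p = 0.14 by limma). Dcc, the netrin receptor that mediates attraction, lay between 56.2 and 64.5 on all 6 arrays (log2 fold change -0.04, and -0.08 without shLuc replicate 3).

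The Slits are secreted ligands and the Robos their receptors, and both genes of this role called on 6 arrays differed in opposite directions. Robo1 had an intensity of 124, 128 and 145 in shSca-1 cells, against 251, 244 and 173 in shLuc cells. The groups did not overlap, and shLuc replicate 3 was the lowest shLuc array. The means were 132 ± 11.4 in shSca-1 cells and 222 ± 43.2 in shLuc cells (SD, n = 3 each), and the log2 fold change was -0.73 (SE 0.18, unadjusted p = 0.0053, adjusted p = 0.31 by limma). It was -0.90 when shLuc replicate 3 was left out, with an adjusted p of 0.015 by limma. This value rests on 1 probe set: the others, at 5.86 to 26.0 on all arrays, had log2 fold changes of 1.13 and 0.24, and the mean of all 3 probe sets had 0.21.

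Slit2 was the guidance gene called higher in shSca-1 cells. Its intensity was 712, 747 and 788 in shSca-1 cells, against 576, 500.5 and 397 in shLuc cells. Every shSca-1 array was above every shLuc array, and the lowest was shLuc replicate 3. The means were 749 ± 37.8 in shSca-1 cells and 491 ± 90.3 in shLuc cells (SD, n = 3 each), and the log2 fold change was 0.62 (SE 0.15, unadjusted p = 0.0044, adjusted p = 0.30 by limma). Leaving out shLuc replicate 3 gave 0.48, a fold under 1.5, with an adjusted p of 0.045 by limma. A second probe set, also dim at 23.8 to 65.8 on all arrays, had a log2 fold change of 0.64. It did not pass (unadjusted p = 0.073 by limma) and had 0.38 without shLuc replicate 3. The remaining one, at 25.7 to 37.3 on all arrays, had -0.22.

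Slit3 depended on replicate 3 of each group. It had 109, 133 and 289.7 in shSca-1 cells, against 390.3, 366 and 62.2 in shLuc cells. Replicates 1 and 2 of the groups lay well apart, shLuc replicate 3 was the lowest of the 6 arrays, and shSca-1 replicate 3 lay nearer to shLuc replicates 1 and 2 than to its own group. The log2 fold change was -0.36 on 6 arrays (unadjusted p = 0.64 by limma), -1.23 without shLuc replicate 3 (unadjusted p = 0.0097, adjusted p = 0.13 by limma) and -1.65 with both replicates 3 left out. Slit1 and Robo2 stayed under 53 on all arrays and were not called.

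**Figure D2:**
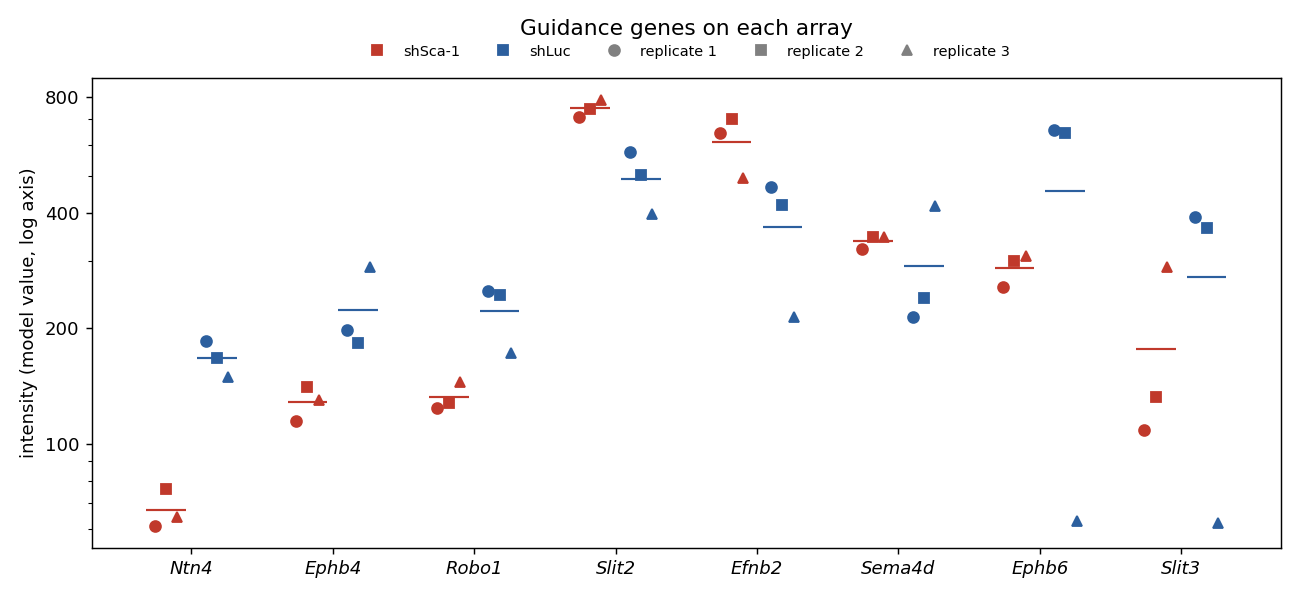
Intensities of 8 guidance genes on each array, on a log axis, with shSca-1 arrays in red left of shLuc arrays in blue. The symbol gives the replicate and the line the mean of 3 arrays. The groups do not overlap for Ntn4, Ephb4, Robo1, Slit2 and Efnb2, and shLuc replicate 3 (triangle) lies at 63.1 for Ephb6 and 62.2 for Slit3, far below shLuc replicates 1 and 2.

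Eph receptors are tyrosine kinases that bind ephrins on neighbouring cells, and one of them, Ephb4, was called on 6 arrays. Its intensity was 115, 140.4 and 130.3 in shSca-1 cells, against 198, 183 and 289 in shLuc cells. The groups did not overlap, and shLuc replicate 3 was the highest array. The means were 129 ± 12.9 in shSca-1 cells and 223 ± 57.2 in shLuc cells (SD, n = 3 each), and the log2 fold change was -0.77 (SE 0.20, unadjusted p = 0.0067, adjusted p = 0.33 by limma). Leaving out shLuc replicate 3 gave -0.57, a fold just under 1.5, with an adjusted p of 0.084 by limma. Ephb4 has 1 probe set.

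The preferred ligand of the receptor EphB4 is ephrin-B2, from Efnb2, and this gene lay the other way. Efnb2 had 645, 700.4 and 492 in shSca-1 cells, against 467, 418 and 214 in shLuc cells. All shSca-1 arrays were above all shLuc arrays, and replicate 3 was the lowest in both groups. Its log2 fold change of 0.80 did not pass the rule (SE 0.30, unadjusted p = 0.033, adjusted p = 0.50 by limma), nor did 0.45 without shLuc replicate 3 (adjusted p = 0.18 by limma). With both replicates 3 left out it was 0.60 and passed (adjusted p = 0.0053 by limma). The other 3 Efnb2 probe sets had log2 fold changes of 0.66, 0.69 and 0.06.

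Ephb6, a receptor whose kinase domain is inactive, was the member for which leaving out shLuc replicate 3 gave the smallest adjusted p. It had 256, 299 and 309 in shSca-1 cells, against 659, 646 and 63.1 in shLuc cells. The shSca-1 arrays lay close together below shLuc replicates 1 and 2, and shLuc replicate 3 was 4-fold or more below every other array while those were all at 100 or more, which held for 1 of the 62 members (1.61%) and for 0.731% of all genes. Ephb6's log2 fold change was -0.06 on 6 arrays (adjusted p = 0.99 by limma) and -1.18 without shLuc replicate 3 (SE 0.11, adjusted p = 0.0044 by limma). The luminal sum was high on this array and the basal sum low, as given above, but not every listed gene followed. Basal Krt5 was at 3141 there, against 9576 and 9968 in shLuc replicates 1 and 2, whereas basal Tagln was at 648, against 120 and 108. Luminal Esr1 was at 122, against 127 and 126.

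Epha1 went the other way on that array. It had 10.6, 15.8 and 15.6 in shSca-1 cells, against 2.07, 12.8 and 147 in shLuc cells, so that shLuc replicate 3 alone was at 4 or more times every other array and at 100 or more. The same was true of the semaphorin Sema3d, and these 2 made 3.23% of the guidance genes, against 1.58% of all genes. For Epha1 the log2 fold change was -0.19 on 6 arrays and 1.42 without shLuc replicate 3, neither of which passed (unadjusted p = 0.89 and 0.11 by limma).

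Epha2, whose receptor is expressed in many epithelia, had 696, 679.97 and 841 in shSca-1 cells, against 620.3, 626 and 459 in shLuc cells. The groups did not overlap, and the log2 fold change of 0.39 did not pass (unadjusted p = 0.046, adjusted p = 0.53 by limma), nor did 0.24 without shLuc replicate 3. Of the other 9 Eph receptors none was called on 6 arrays. Of all 13 receptors 11 had a negative log2 fold change as deposited, where 9935 of all 18193 genes did. The 11 became 8 with quantile normalization and 8 with centred arrays. Ephb3 lay between 227 and 330.3 on all arrays (log2 fold change -0.21, and -0.35 without shLuc replicate 3), and the other 8 stayed under 75 on all of them. Epha4, which binds ephrins of both classes, had 5 probe sets and was singled out after its values were seen. One that does not stand for the gene was past the thresholds on 6 arrays, with 11.8, 7.09 and 21.4 in shSca-1 cells, against 51.6, 50.6 and 33.4 in shLuc cells (log2 fold change -1.87, unadjusted p = 0.0042 by limma, and -2.08 without shLuc replicate 3). The representative Epha4 probe set had a log2 fold change of -0.57 without passing (-0.49 without shLuc replicate 3). Another also had no overlap and did not pass, at -1.14 (unadjusted p = 0.014 by limma, and -1.26 without shLuc replicate 3). A further Epha4 probe set had -0.37 (-0.47 without shLuc replicate 3), and the last, at 7.06 or less on all arrays, had 0.68.

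Ephrins are bound to the membrane, the A class by a lipid anchor and the B class by a transmembrane stretch, and no ephrin was called on 6 arrays. Efna1 had 329, 390.2 and 437 in shSca-1 cells, against 478, 484 and 590.3 in shLuc cells. The groups did not overlap, and the log2 fold change of -0.43 did not pass (unadjusted p = 0.025, adjusted p = 0.46 by limma), nor did -0.33 without shLuc replicate 3. Efnb1, a ligand of EphB receptors, had 1482, 1403 and 1731 in shSca-1 cells, against 1455, 1495 and 887 in shLuc cells. Apart from shLuc replicate 3, its values overlapped, and the log2 fold change was 0.30 on 6 arrays and 0.06 without that array, with neither passing. Efna5, an A-class ligand, had 461, 439 and 571 in shSca-1 cells, against 468, 487 and 523 in shLuc cells (log2 fold change -0.02, and 0.03 without shLuc replicate 3), with overlapping groups. Efnb3 was above in every shSca-1 array, at 76.0 to 106, against 61.2 to 71.0 in shLuc cells, and did not pass (log2 fold change 0.47, adjusted p = 0.53 by limma, and 0.49 without shLuc replicate 3). Efna2, Efna3 and Efna4 overlapped between the groups.

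No semaphorin was called on 6 arrays. The class 4 semaphorins are membrane proteins that signal through B-class plexins, and Sema4d, the ligand of plexin-B1, was called by adjusted p only without shLuc replicate 3. It had 323, 346 and 346 in shSca-1 cells, against 214, 239.6 and 417 in shLuc cells. The 3 shSca-1 arrays lay close together, above shLuc replicates 1 and 2 and below shLuc replicate 3. Sema4d's log2 fold change was 0.28 on 6 arrays (adjusted p = 0.77 by limma) and 0.58 without shLuc replicate 3 (SE 0.11, adjusted p = 0.033 by limma), a fold just under 1.5. Of the other Sema4d probe sets, at 45.5 or less on all arrays, one had a log2 fold change of 0.26 and the other of -0.55.

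The semaphorins of smallest unadjusted p were Sema5a and Sema4c. Sema5a, a membrane semaphorin with thrombospondin repeats, had 59.6, 78.0 and 44.8 in shSca-1 cells, against 103, 97.6 and 223 in shLuc cells (log2 fold change -1.15, unadjusted p = 0.017, adjusted p = 0.42 by limma, and -0.76 without shLuc replicate 3). Its groups did not overlap, and shLuc replicate 3 was the highest array. Sema4c, a ligand of plexin-B2, had 144, 149.6 and 177 in shSca-1 cells, against 206, 209 and 195 in shLuc cells, again with no overlap (log2 fold change -0.38, unadjusted p = 0.027, adjusted p = 0.47 by limma, and -0.41 without shLuc replicate 3).

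Class 3 semaphorins are secreted and bind neuropilins. Sema3c, a ligand bound by both neuropilins, had 2906, 2848 and 4049 in shSca-1 cells, against 2926, 2760.3 and 715 in shLuc cells. Replicates 1 and 2 of both groups were alike to within their spread, shSca-1 replicate 3 was the highest array and shLuc replicate 3 the lowest. The log2 fold change was 0.85 on 6 arrays (SE 0.52, unadjusted p = 0.15 by limma) and 0.18 without shLuc replicate 3. The dimmer Sema3c probe set had 603, 645 and 851 in shSca-1 cells, against 477, 437 and 166 in shLuc cells, and was past the thresholds without shLuc replicate 3 (log2 fold change 0.60, unadjusted p = 0.0038 by limma). Sema3f had 489, 481 and 416 in shSca-1 cells, against 475, 543 and 397 in shLuc cells, with overlapping groups (log2 fold change -0.02, and -0.14 without shLuc replicate 3). Sema3d had 11.1, 14.2 and 8.69 in shSca-1 cells, against 11.9, 17.7 and 111 in shLuc cells (log2 fold change -1.36, unadjusted p = 0.14 by limma). Only shLuc replicate 3 lay apart, and the value without it was -0.38. In the other Sema3d probe set this array stood further apart, at 653, against 2.59 to 13.3 on the others. Its log2 fold change was -2.36 (unadjusted p = 0.21 by limma), and -0.22 without shLuc replicate 3.

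Sema6d, a membrane semaphorin and ligand of plexin-A1, was singled out after its values were seen. It had 165, 178 and 449 in shSca-1 cells, against 423, 348 and 78.3 in shLuc cells. As for Slit3, replicates 1 and 2 lay apart between the groups while both replicates 3 lay on the side of the other group. The log2 fold change was 0.07 on 6 arrays, -0.70 without shLuc replicate 3 (adjusted p = 0.44 by limma) and -1.16 with both replicates 3 left out (adjusted p = 0.0012 by limma). Of 12 members whose replicates 1 and 2 differed by over 1.5-fold between the groups, 5 had shSca-1 replicate 3 nearer to shLuc replicates 1 and 2, and 3 of these (Efnb2, Sema6d and Slit3) reached 64 on any array. The share of 41.7% stood beside 46% of the 3665 genes of the whole table that differed in this way.

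**Figure D3:**
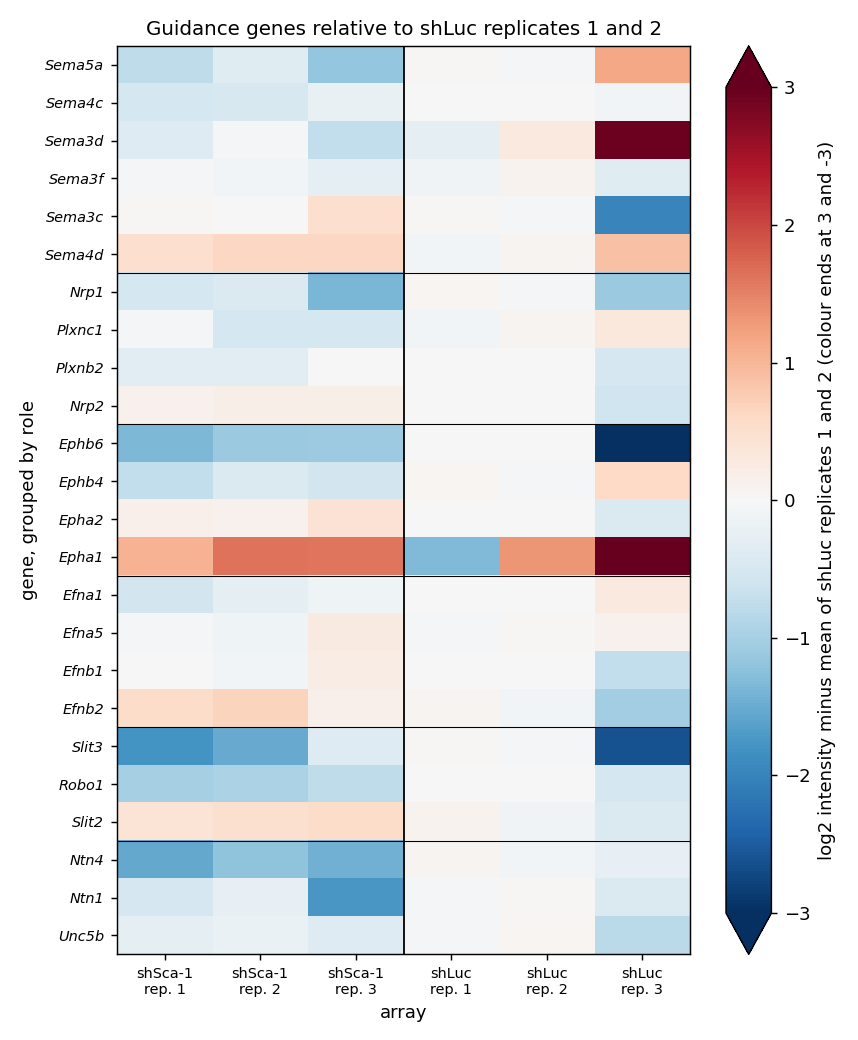
Log2 intensity of the named guidance genes on each array, minus the mean of shLuc replicates 1 and 2, with shSca-1 arrays on the left and genes grouped by role. Colours end at 3 and -3. Ntn4 and Robo1 are lower across the 3 shSca-1 arrays, and the strongest colours stand in the column of shLuc replicate 3, where Epha1 and Sema3d are high and Ephb6 and Slit3 low.

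Plexins are the signalling receptors of semaphorins and neuropilins their co-receptors, and none was called on 6 arrays. Nrp1, which binds class 3 semaphorins and VEGF, had 1259.7, 1329.8 and 705 in shSca-1 cells, against 1879, 1744 and 832 in shLuc cells. Replicate 3 was the lowest in both groups, and all shSca-1 arrays lay below shLuc replicates 1 and 2. Nrp1's log2 fold change was -0.40 on 6 arrays (unadjusted p = 0.31 by limma) and -0.78 without shLuc replicate 3 (adjusted p = 0.16 by limma). The other 3 Nrp1 probe sets had -0.76, -0.46 and -0.90 on 6 arrays. Each of these was past the thresholds without shLuc replicate 3, at -1.20, -0.94 and -1.37.

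Nrp2, the co-receptor for Sema3f, had 940.1, 964 and 973 in shSca-1 cells, against 867, 845 and 564 in shLuc cells. The groups did not overlap, and the log2 fold change of 0.36 did not pass (unadjusted p = 0.074, adjusted p = 0.59 by limma), nor did 0.16 without shLuc replicate 3. Plxnb2, the receptor of Sema4c, had 1139, 1156 and 1435 in shSca-1 cells, against 1428, 1442 and 1009.6 in shLuc cells, with overlapping groups. Its log2 fold change was -0.05 on 6 arrays, -0.21 without shLuc replicate 3 (adjusted p = 0.39 by limma) and -0.32 with both replicates 3 left out (adjusted p = 0.015 by limma). Plxnc1, the receptor of Sema7a, was dim, at 26.4 to 36.3 in shSca-1 cells, against 36.0 to 47.7 in shLuc cells (log2 fold change -0.48, unadjusted p = 0.10 by limma, and -0.37 without shLuc replicate 3). Plxna1, singled out after its values were seen, had 883, 1003 and 894 in shSca-1 cells, against 1056, 1139.5 and 365 in shLuc cells, so that shLuc replicate 3 was again the lowest array. Its log2 fold change was 0.28 on 6 arrays and -0.25 without shLuc replicate 3, neither of which passed.

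The 81 probe sets that do not stand for a gene gave few calls. On 6 arrays 1 was past the thresholds and lower in shSca-1 cells, that of Epha4 above (1.23%, against 1.33% of all 45037 probe sets), and 0 were higher, against 0.5%. Without shLuc replicate 3, 6 were lower in shSca-1 cells (7.41%, against 2.61% of all probe sets) and 1 was higher (1.23%, against 0.953%). Several of the 6 are probe sets of 1 gene, Nrp1. The lower ones were the 3 of Nrp1 and that of Epha4 given above, with 1 each of Sema3f (log2 fold change -0.68) and Sema4a (log2 fold change -1.24), whose representative probe sets had -0.14 and 0.04. The higher one was that of Sema3c.

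**Figure D4:**
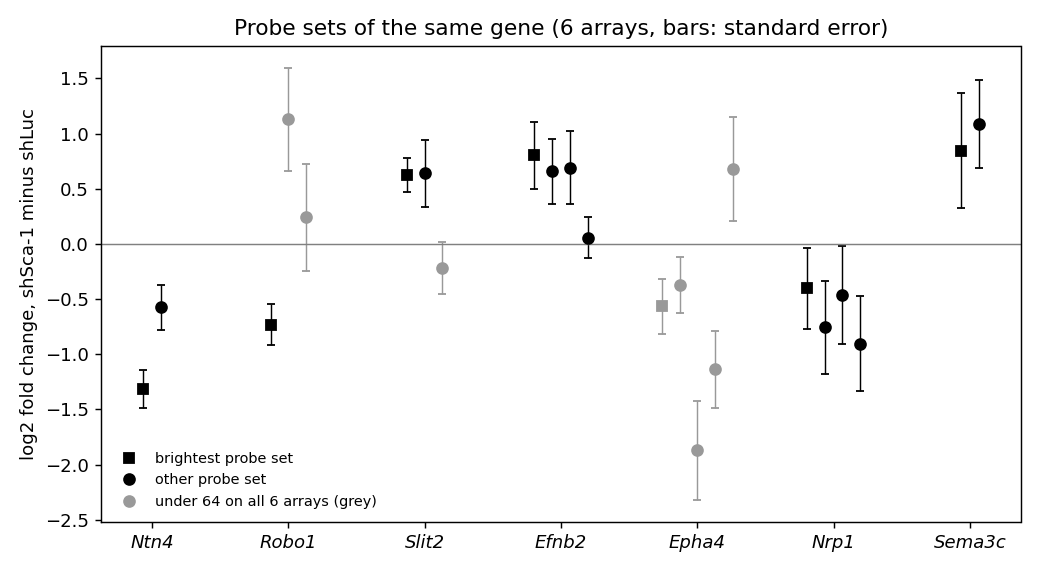
Log2 fold change (shSca-1 over shLuc) and SE on 6 arrays for each probe set of 7 guidance genes. Squares are the probe sets that stand for the gene, circles the others, and grey marks those under 64 on all arrays. The 4 Nrp1 probe sets all lie below 0, whereas the grey Robo1 probe sets lie at 1.13 and 0.24, across 0 from the square at -0.73.

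Of the 62 genes, 18 were under 64 on all 6 arrays and 6 were over 500 on all of them. Those under 64 included 6 of 13 Eph receptors and 6 of 20 semaphorins, and among these dim genes the log2 values spread widely.

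Genes of the same pathways outside the families were also listed. The first list held 29 secreted or membrane guidance proteins, such as other netrin receptors, RGMs, FLRTs and L1-type adhesion molecules, all measured. None passed the first rule on 6 arrays, where 1.52% of all genes were called lower and 0.528% higher, and the median log2 fold change was -0.09 (11 positive and 18 negative). Ntng2, in this list, is among the changed genes of the study, which was known when the list was written. The probe set that stands for Ntng2 here had a log2 fold change of 0.47 (unadjusted p = 0.40 by limma), and 0.88 without shLuc replicate 3. Without shLuc replicate 3, 2 of the 29 were lower, where 2.91% of all genes were. Chl1, an L1-type adhesion molecule and co-receptor for class 3 semaphorins, had 130.3, 127 and 479 in shSca-1 cells, against 689 and 654 in shLuc replicates 1 and 2 and 83.7 in shLuc replicate 3 (log2 fold change -1.75, adjusted p = 0.14 by limma without that array). The order of the arrays was that seen for Slit3 and Sema6d. Rtn4r, the Nogo receptor, had 61.8, 60.8 and 75.8 in shSca-1 cells, against 111, 122 and 40.3 in shLuc cells (log2 fold change -0.82, adjusted p = 0.061 by limma without shLuc replicate 3).

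The second list held 52 cytoplasmic partners of guidance receptors, of which 51 were measured. Again none passed on 6 arrays, and the median log2 fold change was -0.04 (21 positive and 30 negative). Without shLuc replicate 3, Vav3 (log2 fold change -1.25) and Tiam1 (log2 fold change -0.84), exchange factors for Rac that act behind Eph receptors, were lower past the thresholds, 2 of 51 where 2.91% of all genes were. Vav3 had 239.6, 239.8 and 591 in shSca-1 cells, against 765, 773 and 269 in shLuc cells, and Tiam1 had 388, 384 and 647 in shSca-1 cells, against 804, 839 and 229 in shLuc cells. In both, shSca-1 replicate 3 lay nearer to shLuc replicates 1 and 2. Ptpn13, a phosphatase that binds B-class ephrins, was lower by adjusted p only (log2 fold change -0.52, adjusted p = 0.044 by limma), 1 of 51 where 2.73% of all genes were. Of the cell type lists given above, Krt17 (basal, log2 fold change -0.75) was called lower and Tubb3 (neuronal, 1.14) higher on 6 arrays. Both passed again without shLuc replicate 3 (-0.80 and 0.83), where Acta2 (basal, -0.66) and Cd68 (leukocyte, -1.66) were also called lower. The shares over all genes were 1.52% lower and 0.528% higher on 6 arrays, and 2.91% and 1.08% without that array.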

How the data were processed

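RNA of 3 shSca-1 and 3 shLuc samples of Wnt1-YL cells was hybridised to Affymetrix mouse genome arrays. The deposited values are linear intensities that the authors made in dChip by its PM-MM model after invariant set normalization; its version and a genome build are not given in the sources used here. Precision is limited by the number of arrays. Of 45101 probe sets, 64 controls were left out. Values were floored at 1 and put on the log2 scale, and shSca-1 was compared with shLuc on all probe sets with limma 3.58.1 (lmFit and eBayes with a trend, R 4.3.3), Benjamini-Hochberg adjusted. Symbols came from the platform annotation, which can be old. The code was tested on simulated data.

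The members and lists were chosen with earlier results of these data known. Named were members called by p or adjusted p with or without shLuc replicate 3, in each role the 2 of highest mean and the 2 of smallest p, and members at 100 or more set apart at least 4-fold by 1 array. Of the lists, called members were named. Other members given with values (Dcc, Ephb3, Epha4, Efnb3, Sema6d, Plxna1 and further probe sets) were chosen after their values were seen. Alternatives were quantile normalization, centring, floors of 16 and 64, a filter on dim probe sets (lowest 40 percent), no trend, robust variance, the methods' t-test, means of all probe sets, a replicate block and leaving out arrays.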

Additional observations from a re-analysis of the deposited data

How the results depend on the processing

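Ntn4 stayed lower and past the thresholds of p and fold under every alternative run. The count of guidance genes lower in shSca-1 cells, 3 on 6 arrays, was 1 (Ntn4) with quantile normalization, a floor of 16, a floor of 64, no variance trend, the methods' t-test or a replicate block, 1 to 4 with 1 array left out (1, Ntn4, without shLuc replicate 1 or any 1 shSca-1 array) and 6 with both replicates 3 left out. The count higher, 1 on 6 arrays (Slit2), was 0 with either floor, no trend, the t-test or the mean of all probe sets, and 0 to 1 with 1 array left out (1 only without shLuc replicate 1). With the replicate block the 1 higher gene was Efnb2 (unadjusted p = 0.0066 by limma). Same-numbered arrays did not deviate together (correlations -0.04, -0.02 and -0.03). With 3 arrays per group and shLuc replicate 3 standing apart, this cannot settle whether the samples were paired, and the labels do not say. By adjusted p, 0 lower became 1 (Ntn4) with robust variance, 0 to 3 with 1 array left out and 10 with both replicates 3 left out, and 0 higher became 0 to 2 and 3 under the same 2 settings. Leaving out shLuc replicate 3 was the 1 single-array setting that gave any such call.

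Some log2 fold changes turned sign, among them that of Robo1, which was called on 6 arrays. With quantile normalization they were 0.036 for Ephb6, 0.050 for Efna5, 0.026 for Unc5b, 0.018 for Plxnb2 and 0.043 for Sema3f, and with centred arrays 0.0034, 0.048, 0.031, 0.018 and 0.043. With the mean of all probe sets Unc5b had 0.0089 and Robo1 0.21. With both replicates 3 left out Epha1 had 1.33 and Efnb1 -0.032. With 1 array left out, Epha1 ran from -1.65 to 1.42, Ephb6 from -1.18 to 0.51, Efna5 from -0.13 to 0.060, Unc5b from -0.30 to 0.14, Plxnb2 from -0.21 to 0.042, Sema3f from -0.14 to 0.087 and Slit3 from -1.23 to 0.094. The cause was not tested. Dim probe sets limit what can be seen for the 18 genes under 64 on all arrays.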

Other observations

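A further probe set, without a symbol in the platform table, is named Plxna2 in the study's list of differentially expressed genes. The study thus counts it among its changed genes, by a t-test and its fold threshold. Its intensities were 16.5, 18.6 and 20.5 in shSca-1 cells, against 33.1, 28.1 and 31.8 in shLuc cells. Its groups did not overlap, but with limma its log2 fold change of -0.75 did not pass the study's p threshold (unadjusted p = 0.022, adjusted p = 0.45 by limma). The reason for this difference from the study's list was not tested. Of the 4 Plxna2 probe sets that have a symbol, the one that stands for the gene was at 100.4, 96.3 and 139 in shSca-1 cells, against 146, 137 and 71.9 in shLuc cells (log2 fold change -0.03), and the others had log2 fold changes of -0.27, 0.34 and 0.70.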
